A study of Homo sapiens with 12 samples.

Results

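Transcripts of 8 CC chemokine genes, CCL2, CCL5, CCL7, CCL8, CCL11, CCL13, CCL20 and CCL26, were followed across 12 RNA-seq libraries of human adipocytes. These genes were chosen by symbol from the 28901 named genes of the count table, with earlier results of these data known. Counts of members called are thus set beside the shares of all genes as a description only. All 8 passed the filter of at least 10 counts that left 17173 genes over the 12 libraries. The cells were ASC52telo, a human adipose stromal cell line immortalized with hTERT, studied at day 14 of adipocyte differentiation. All cells expressed a lentiviral shRNA, either a scramble control or an shRNA against linc-ADAIN, an adipose long intergenic non-coding RNA. Cells of each kind were left without LPS or were given 100 ng/mL of LPS, a bacterial lipid that activates innate immune signaling, for 4 h. The 4 groups of 3 libraries are called scramble, scramble with LPS, KD (linc-ADAIN knockdown) and KD with LPS. Figure legends of the study give its RNA-seq of KD against scramble as N = 1 in triplicate. The p-values below thus measure the spread between these libraries of 1 line and do not cover other donors or other shRNAs. The level of the lincRNA was not analysed here, so the KD groups are named by their labels alone and the knockdown is unverified in these libraries.

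CC chemokines are small secreted proteins with adjacent cysteines that draw leukocytes along a gradient by way of G protein-coupled receptors. In adipose tissue they are best known for recruiting monocytes and other leukocytes during inflammation, and LPS raises many of them through toll-like receptor and NF-kB signaling. CCL2, CCL7, CCL8 and CCL13 are the monocyte chemoattractant proteins and act largely on CCR2. CCL11 and CCL26 are eotaxins, which act on CCR3 and attract eosinophils. CCL5 acts on CCR1 and CCR3 among others, and CCL20 acts on CCR6 of lymphocytes and dendritic cells.

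Counts on named genes totalled 28.4 to 53.8 M per library, in units of 1e6, and the correlation of log2 levels between libraries of a group was 0.99 to 0.996. Adipocyte markers were present in every library, but their summed level was 3321 to 4564 counts per 1e6 counts of the library (CPM) in scramble against 663 to 1968 CPM in KD, and 3844 to 4460 CPM against 536 to 1251 CPM with LPS. Of the 11 adipocyte markers, 7 were lower in KD without LPS and 8 with LPS, at an adjusted p under 0.05 and at least 2-fold. Over all genes, 7.77% and 8.48% passed these limits in either direction. Stromal markers summed to 7231 to 8931 CPM in scramble and 10329 to 12037 CPM in KD, but moved both ways: without LPS, LUM was called higher and THY1 and ENG lower, and with LPS 2 were called higher and 2 lower. Leukocyte markers summed to 58.4 to 62.0 CPM in scramble and 89.9 to 120.1 CPM in KD, and also moved both ways. CD163 rose from a mean of 4.33 to 68.6 CPM and was the leukocyte marker called without LPS, CD68 had means of 53.6 and 31.1 CPM, and AIF1 and CD3E were at 0 counts in all 12 libraries. The part of these shifts in the chemokine results was not tested. In bulk RNA, fewer cells of a type and less RNA per cell cannot be told apart.

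In GENCODE v44 on GRCh38, 5 of the members lie in 1 cluster on the plus strand of chromosome 17, in the order CCL2, CCL7, CCL11, CCL8 and CCL13, from chr17:34255274 to chr17:34358610. CCL5 lies outside it on the minus strand (chr17:35871491-35880793), CCL20 on chromosome 2 (chr2:227805739-227817564, plus strand) and CCL26 on chromosome 7 (chr7:75769533-75789896, minus strand). All 8 are annotated as protein-coding. No 31-base stretch of the CCL2, CCL7, CCL8, CCL11, CCL13 and CCL26 transcripts occurs in transcripts of another gene, so the counting could separate these paralogs. For CCL5, 24.2% of such stretches also occur in other genes, none of them a CC chemokine, and for CCL20 the share is 0.063%.

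RefSeq (GRCh38.p14) promoter windows were at hand for 5 of the 8 members. The 100 bases before each RefSeq start are shown for these 5, 5′ to 3′ on the gene's strand. A link between these sequences and the changes with LPS or KD was not tested. Capitals mark the letters of the motifs searched.
CCL7: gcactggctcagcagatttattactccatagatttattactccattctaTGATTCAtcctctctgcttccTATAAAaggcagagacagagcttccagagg
CCL8: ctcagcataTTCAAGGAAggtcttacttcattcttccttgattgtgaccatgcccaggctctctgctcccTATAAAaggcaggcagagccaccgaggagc
CCL13: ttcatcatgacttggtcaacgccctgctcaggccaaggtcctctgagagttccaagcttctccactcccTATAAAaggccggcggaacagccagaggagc
CCL20: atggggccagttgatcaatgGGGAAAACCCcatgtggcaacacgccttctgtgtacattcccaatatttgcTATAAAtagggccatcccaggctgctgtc
CCL26: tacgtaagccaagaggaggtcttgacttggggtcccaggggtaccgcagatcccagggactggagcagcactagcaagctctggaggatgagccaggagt
These windows are chr17:34270121-34270220 for CCL7, chr17:34319335-34319434 for CCL8, chr17:34356380-34356479 for CCL13, chr2:227813742-227813841 for CCL20 and chr7:75789747-75789846 on the minus strand for CCL26. The RefSeq starts used for CCL20 and CCL26 differ from the GENCODE v44 starts, and their windows lie inside the gene spans given above.

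The motifs were chosen with the sequences seen, were searched on both strands of 300-base windows around the start, and their matches are a description of letters only. The TATA box letters TATAAA stood 29 to 31 bases before the start in CCL7, CCL8, CCL13 and CCL20, and 11.5% of all 35116 windows hold them. Among these 5 windows, CCL20 alone held the NF-kB motif (its first capitals above, with 3 bases left free before the last pair), 80 bases before its start, against 6.9% of all windows. CCL7 held the AP-1 letters TGANTCA 51 bases before its start, against 7.71%. The STAT letters TTCNNNGAA were found in CCL8 at 91 bases before the start and, upstream of the stretches shown, in CCL7 and CCL13, against 7.66%. None of these motifs overlapped another in the stretches shown, and CCL26 held none of these letters.

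Levels per transcript length put CCL2 and CCL20 far above the other members in every group. In scramble, CCL2 stood at 76.3 ± 23.0 CPM per kb of its longest transcript (SD, n = 3) and CCL20 at 24.1 ± 5.35, which were 74.4% and 23.5% of the sum over the members. The other 6 lay at or under 0.882 CPM per kb, with CCL11 lowest at 0.0882 ± 0.0788. In KD, CCL11 came next after CCL2 and CCL20 at 5.29 ± 2.04 CPM per kb, or 4.34% of the sum, followed by CCL8 at 1.81 ± 0.245. With LPS, CCL20 was first by the longest transcript in scramble (339 ± 60.2 CPM per kb against 261 ± 40.3 for CCL2) and in KD (537 ± 35.3 against 521 ± 21.7). That order of CCL20 and CCL2 turned when the median transcript length was used. In KD with LPS, CCL11 (18.2 ± 1.93), CCL5 (17.3 ± 2.17) and CCL8 (12.1 ± 2.37 CPM per kb) followed, and CCL13 and CCL26 were last.

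**Figure D1:**
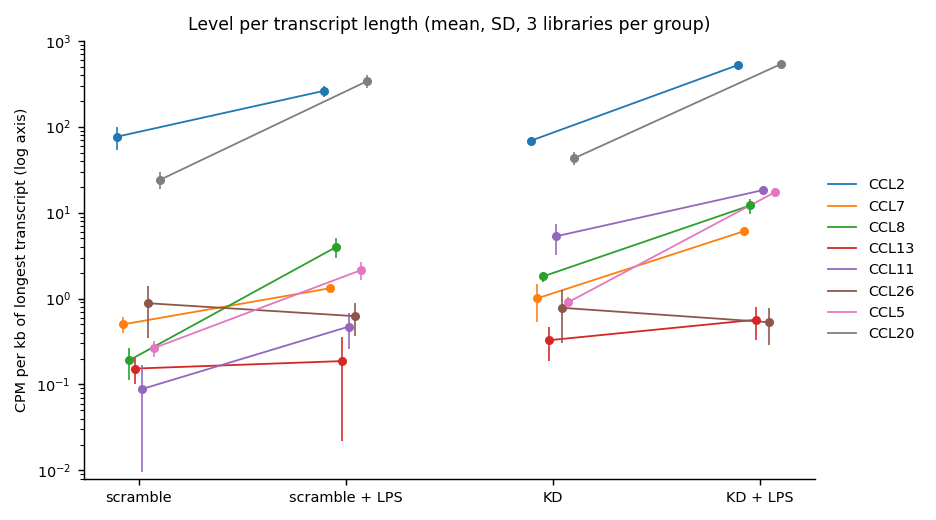
Level of each member per kb of its longest GENCODE v44 transcript (CPM per kb, log axis) in the 4 groups. Points are means of 3 libraries, bars are SDs and lines join the groups without and with LPS. CCL2 and CCL20 lie above all other members in every group, and CCL11 moves from the lowest place in scramble to the place after CCL2 and CCL20 in KD.

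The question of the first comparison was how linc-ADAIN KD changed these transcripts in unstimulated adipocytes. CCL11, CCL8 and CCL5 rose in KD, CCL20 was higher by less than 2-fold, and CCL2, the most abundant, did not pass the test. The negative differences, of CCL2 and CCL26, had unadjusted p-values of 0.419 and 0.820 by edgeR. In all, 3 of 8 members were called, by an adjusted p under 0.05 (edgeR's quasi-likelihood test, Benjamini-Hochberg adjustment over all genes tested) and at least 2-fold, where 7.77% of all 16217 genes tested were called and 4.28% were called higher. The 3 KD libraries lay above the 3 scramble libraries for 6 of 8 members, against 20.1% of all genes, and the members' median log2 fold change was 1.04 against 0.02 over all genes. By the adjusted p alone, 4 of 8 members passed, against 27.2% of all genes.

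CCL11, the eotaxin CCR3 ligand, showed the largest KD difference among the members. It was at 6, 8 and 0 counts in scramble (0.114, 0.152 and 0 CPM) and at 142, 225 and 311 counts in KD (4.09, 4.18 and 7.68 CPM). A count of 0 allows up to 3 counts in that library. Every KD library thus held many times the CCL11 of any scramble library. The fitted difference was 56.8-fold (log2 fold change 5.83 ± 0.59, SE; adjusted p = 1.94e-05 by edgeR), with a 95% interval of 4.53 to 7.13 on the log2 scale.

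CCL8, also called monocyte chemoattractant protein 2, lay at 0.228, 0.0951 and 0.172 CPM in scramble, from 5 to 12 counts, and at 1.56, 1.36 and 1.78 CPM in KD, from 54 to 73 counts. The groups did not overlap, and CCL8 rose 9.36-fold (log2 3.23 ± 0.56, adjusted p = 0.00107 by edgeR). CCL5, which attracts T cells and monocytes, lay at 0.266, 0.361 and 0.408 CPM in scramble and at 1.24, 1.30 and 0.988 CPM in KD. It rose 3.40-fold (log2 1.77 ± 0.53, adjusted p = 0.0268 by edgeR), on 14 to 19 counts per scramble library. The call of CCL5 was lost in 6 of 13 alternative fits, with the adjusted p up to 0.0921 when scramble replicate 1 was left out and 0.0713 with the replicate number as a block.

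CCL20, the CCR6 ligand, lay at 16.1, 19.7 and 25.0 CPM in scramble and at 42.3, 36.3 and 29.6 CPM in KD. The groups did not overlap, and the difference was 1.79-fold (log2 0.84 ± 0.17, adjusted p = 0.00259 by edgeR), under the 2-fold limit. CCL2, also called monocyte chemoattractant protein 1, lay at 95.8, 176.3 and 167.3 CPM in scramble and at 144.2, 120.2 and 130.6 CPM in KD. The lowest scramble library was below every KD library and the other two were above them, so the groups overlapped. The log2 difference of CCL2 was -0.15 ± 0.18 (adjusted p = 0.593 by edgeR), with a 95% interval of -0.54 to 0.24, which holds no 2-fold change in either direction. Without scramble replicate 1, the lowest library, the log2 difference was -0.38 (adjusted p = 0.0151 by edgeR), lower in KD by less than 2-fold.

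CCL7, monocyte chemoattractant protein 3, lay at 0.323, 0.399 and 0.494 CPM in scramble and at 0.605, 0.576 and 1.26 CPM in KD. Its 3 KD libraries were all higher, but KD replicate 3 stood apart from the other two, and the log2 difference of 1.00 ± 0.62 had an adjusted p of 0.267 by edgeR. CCL13 had 4 to 8 counts per library in scramble and 6 to 16 in KD, and CCL26 had 15 to 55 and 10 to 49 counts. Neither difference was detectable at this depth: the 95% intervals were -1.26 to 3.43 (log2) for CCL13 and -1.71 to 1.38 for CCL26. After scaling, the CCL13 libraries of KD (lowest 0.173 CPM) lay just above those of scramble (highest 0.152 CPM), although the counts overlapped.

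**Figure D2:**
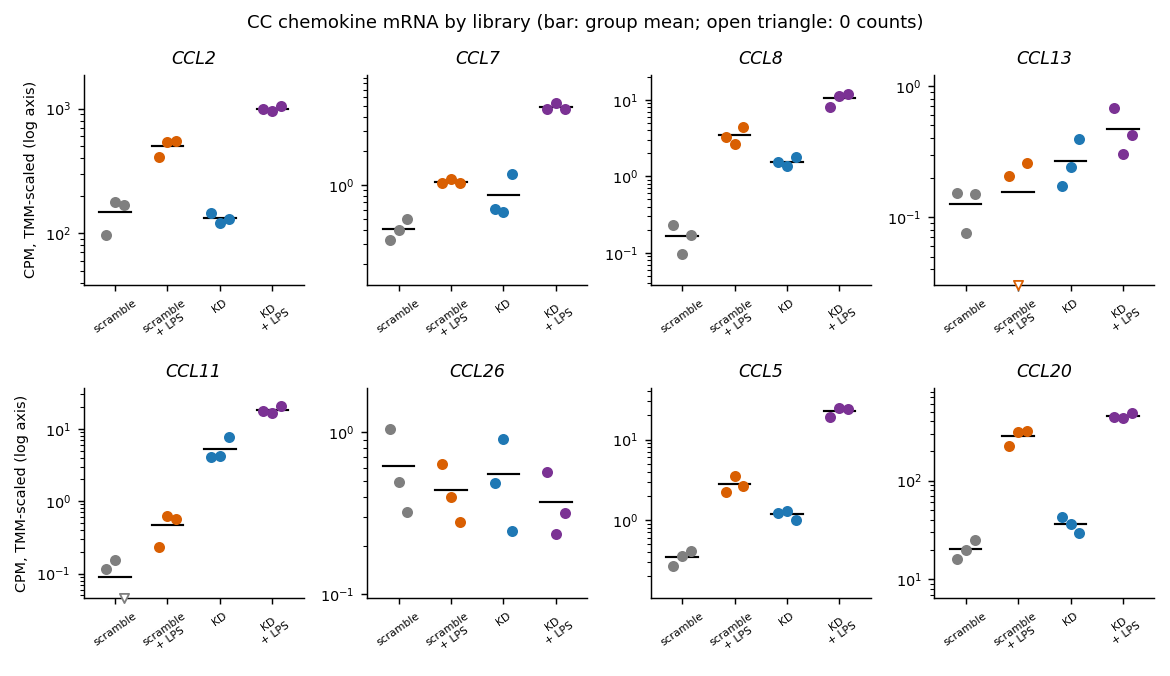
CPM of each member in each library (TMM-scaled, log axis), by group. Points are libraries, bars are group means and open triangles at the lower edge are libraries with 0 counts. For CCL5, CCL7, CCL8, CCL11, CCL13 and CCL20 the KD libraries lie above the scramble libraries without and with LPS, on few counts for CCL13. For CCL2 this is seen only with LPS.

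The second comparison set KD against scramble under LPS. CCL11, CCL5, CCL7 and CCL8 rose in KD, and CCL2 and CCL20 were higher at an adjusted p under 0.05 without reaching 2-fold. Of the 8 members 4 were called, where 8.48% of 15981 genes tested were called and 4.58% were called higher. The KD libraries lay above the scramble libraries for 7 of 8 members, against 20% of all genes, and the members' median log2 fold change was 1.57 against 0.03 over all genes. By the adjusted p alone, 6 of 8 members passed, against 26.9% of all genes.

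CCL11 lay at 0.230, 0.628 and 0.562 CPM in scramble with LPS and at 17.8, 16.7 and 20.5 CPM in KD with LPS, with no overlap. It rose 38.9-fold (log2 5.28 ± 0.28, adjusted p = 1.21e-08 by edgeR). CCL5 lay at 2.22, 3.50 and 2.62 CPM in scramble with LPS and at 19.3, 24.5 and 23.7 CPM in KD with LPS. It rose 8.13-fold (log2 3.02 ± 0.19, adjusted p = 5.94e-08 by edgeR), and its lowest KD library held several times the highest scramble library.

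CCL7 lay at 1.05, 1.12 and 1.03 CPM in scramble with LPS and at 4.75, 5.31 and 4.71 CPM in KD with LPS. The libraries of each group were close together and the groups far apart, and CCL7 rose 4.61-fold (log2 2.20 ± 0.29, adjusted p = 6.34e-05 by edgeR). CCL8 lay at 3.27, 2.64 and 4.38 CPM in scramble with LPS and at 8.12, 11.3 and 11.9 CPM in KD with LPS. It rose 3.03-fold (log2 1.60 ± 0.24, adjusted p = 0.000188 by edgeR).

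CCL2 lay at 411.8, 539.6 and 551.2 CPM in scramble with LPS and at 993.4, 961.3 and 1044 CPM in KD with LPS, with no overlap. The difference of 1.99-fold (log2 1.00 ± 0.10, adjusted p = 5.29e-06 by edgeR) stood just under the 2-fold limit, and 7 of 13 alternative fits put it above the limit. CCL20 lay at 226.8, 307.6 and 319.6 CPM in scramble with LPS and at 441.5, 427.2 and 484.2 CPM in KD with LPS. Its groups did not overlap either, with a difference of 1.58-fold (log2 0.66 ± 0.11, adjusted p = 0.00054 by edgeR).

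CCL13 lay at 8, 0 and 11 counts in scramble with LPS and at 24, 14 and 12 counts in KD with LPS. Its log2 difference of 1.55 ± 1.19 had an adjusted p of 0.387 by edgeR, so a change of this size was not detectable at these counts. CCL26 was at 12 to 25 counts in scramble with LPS and 9 to 20 in KD with LPS, with overlapping groups and a log2 difference of -0.24 ± 0.89 (adjusted p = 0.889 by edgeR).

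The next comparisons asked how LPS changed the members in scramble and in KD cells. They share the scramble and the KD libraries, respectively, with the first comparison and the LPS libraries with the second. In scramble, LPS raised CCL8, CCL20, CCL5 and CCL2, which made 4 of 8 members called where 2.68% of 15920 genes tested were called and 1.4% were called higher. In KD, LPS raised those and also CCL7 and CCL11, so that 6 of 8 members were called where 2.25% of 16169 genes tested were called and 1.3% were called higher. In both kinds of cell the LPS libraries lay above the unstimulated libraries for 6 of 8 members, against 14.3% of all genes in scramble and 13.6% in KD. The members' median log2 fold change was 2.08 in scramble and 2.67 in KD, against 0.02 and 0.01 over all genes. The adjusted p alone gave the same 4 and 6 members, against 14.3% and 11.3% of all genes.

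The largest LPS fold in scramble was that of CCL8, 20.7-fold (log2 4.37 ± 0.42, adjusted p = 3.56e-05 by edgeR), from 5 to 12 counts per library to 80 to 187 counts. In KD, where CCL8 started higher, it rose 6.70-fold (log2 2.74 ± 0.24, adjusted p = 1.89e-06 by edgeR). CCL20 rose 14.2-fold in scramble (log2 3.83 ± 0.17, adjusted p = 1.52e-07) and 12.5-fold in KD (log2 3.65 ± 0.12, adjusted p = 4.06e-11), both by edgeR. CCL20 reached 284.7 ± 50.5 CPM in scramble with LPS and 450.9 ± 29.6 CPM in KD with LPS (SD, n = 3).

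CCL5 rose 8.08-fold with LPS in scramble (log2 3.01 ± 0.38, adjusted p = 0.000253 by edgeR). In KD it rose 19.0-fold (log2 4.25 ± 0.19, adjusted p = 1.59e-09 by edgeR), to 675 to 1139 counts per library. CCL2 rose 3.45-fold in scramble (log2 1.79 ± 0.20, adjusted p = 9.19e-05) and 7.59-fold in KD (log2 2.92 ± 0.08, adjusted p = 1.64e-11), both by edgeR. Among the called members in scramble, CCL2 thus had the smallest LPS fold and the highest count, 16109 to 23518 per library with LPS.

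CCL7 rose 6.06-fold with LPS in KD (log2 2.60 ± 0.36, adjusted p = 0.000209 by edgeR). In scramble all 3 LPS libraries of CCL7 (34 to 44 counts) were above the 3 unstimulated ones (17 to 23 counts), with a log2 difference of 1.40 ± 0.49 and an adjusted p of 0.0808 by edgeR. DESeq2 (adjusted p = 0.0368) and the edgeR fit on all 12 libraries (0.0207) called it. CCL11 rose 3.45-fold with LPS in KD (log2 1.79 ± 0.22, adjusted p = 7.97e-05 by edgeR). In scramble it moved from 0 to 8 counts to 9 to 24 counts per library, a log2 difference of 2.37 ± 1.11 with an adjusted p of 0.196 on the 6 libraries and 0.0103 in the edgeR fit on all 12.

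CCL13 and CCL26 passed the test neither in scramble nor in KD. CCL13 gave log2 differences with LPS of 0.32 ± 1.30 and 0.78 ± 1.00, and CCL26 of -0.49 ± 0.66 and -0.56 ± 0.90. For both genes the libraries with and without LPS overlapped in each kind of cell. In the chromosome 17 cluster, CCL13 thus passed none of the 4 group comparisons, while its neighbor CCL8 passed all 4. CCL13 is limited by depth, at 0 to 24 counts per library. For LPS in scramble its 95% interval (log2 -2.52 to 3.17) lay below the CCL8 estimate of 4.37. In the other comparisons its intervals held the CCL8 estimates. For KD they were -1.26 to 3.43 against 3.23 without LPS and -1.03 to 4.13 against 1.60 with LPS.

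**Figure D3:**
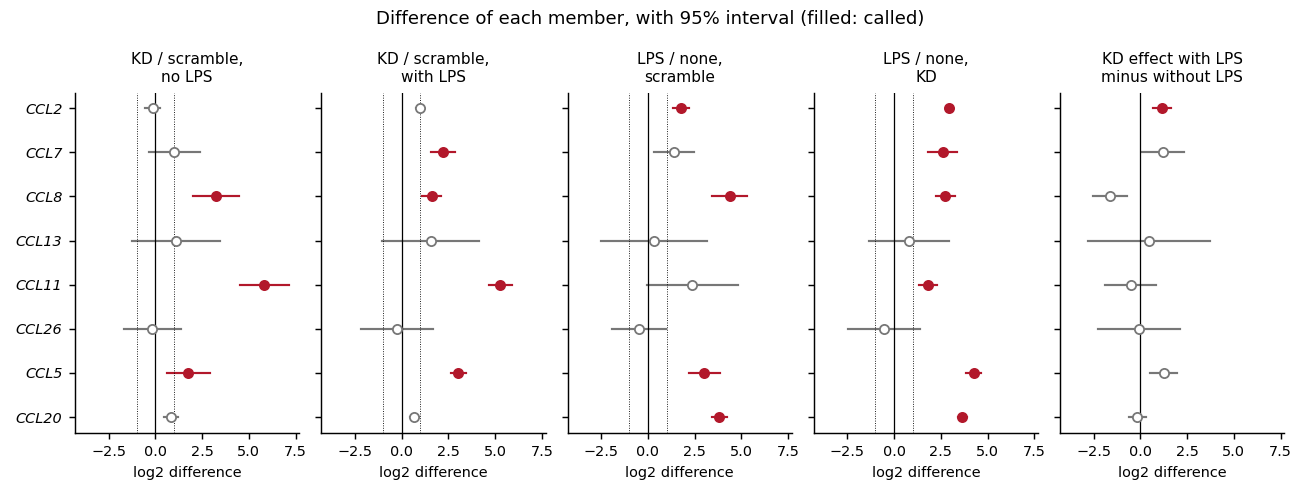
Log2 difference of each member in the 4 group comparisons, and the difference of the KD effect with and without LPS, with 95% intervals from edgeR. Filled red points are called (adjusted p under 0.05 and at least 2-fold, marked by dotted lines; adjusted p alone in the last panel). All filled points lie above 0, and the intervals of CCL13 and CCL26 include 0 in every panel.

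Whether the KD difference changed with LPS was tested by the interaction on all 12 libraries. CCL2 was called, as 1 of 8 members, where 1.28% of 17173 genes tested were called and 0.943% had a larger KD effect with LPS. The log2 KD effect on CCL2 was larger with LPS by 1.15 ± 0.23 (adjusted p = 0.0163 by edgeR), from 0.901-fold without LPS to 1.99-fold with it. Without scramble replicate 2 the difference was 1.00 and its adjusted p 0.0567, so the call was lost without that library.

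The KD effect on CCL5 was larger with LPS by 1.25 ± 0.34 on the log2 scale and that on CCL8 smaller, with a difference of -1.62 ± 0.44. Their adjusted p-values were 0.0957 and 0.0910 by edgeR, and DESeq2 put both under 0.05 (0.0412 and 0.0325). CCL7 gave a difference of 1.21 ± 0.53 (adjusted p = 0.394 by edgeR). For CCL20 the difference was -0.17 ± 0.21, with a 95% interval of -0.61 to 0.27, and for CCL11 it was -0.53 ± 0.65, with an interval of -1.89 to 0.83. The CCL20 interval holds no 2-fold change of the KD effect, whereas that of CCL11 does.

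The order of the 4 groups differed between members. Mean levels of CCL5, CCL7, CCL8 and CCL20 had the increasing order scramble, KD, scramble with LPS and KD with LPS, and of the neighbors in that order only KD and scramble with LPS overlapped, for CCL7. CCL11 had the order scramble, scramble with LPS, KD and KD with LPS, with no overlap between neighbors, so that unstimulated KD cells (5.32 ± 2.05 CPM, SD, n = 3) held more CCL11 than scramble cells with LPS (0.473 ± 0.213 CPM). For CCL2 the unstimulated groups overlapped and stood below both LPS groups. For CCL13 and CCL26 all neighbors in the order overlapped.

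Across the 12 libraries, Pearson's r of log2(CPM + 0.5) between pairs of the 6 members other than CCL13 and CCL26 ran from 0.476 for CCL11 with CCL20 to 0.972 for CCL5 with CCL7. CCL11 with CCL2 gave 0.486, and CCL2 with CCL20 gave 0.962. These values describe 12 libraries that fall into 4 groups and share their shRNA and LPS treatment, so they describe differences between groups as well as between libraries. Among the 11810 genes that averaged 50 or more counts, the genes most like CCL5 were IL6, which encodes interleukin 6 (r = 0.998), and CSF3, granulocyte colony-stimulating factor (0.993). Those most like CCL2 were CFB, complement factor B (0.985), and NFKB1 (0.983).

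CCL20 was most like TNFAIP2 (0.995) and SLC39A14, a zinc and iron importer (0.989), with REL and NFKB2 also among its first 5 (both 0.987). CCL7 was most like SDC4, CSF3 and CCL5 (0.98, 0.979 and 0.972). CCL8 was most like MAP3K5, SUSD6 and PIGA (0.989, 0.987 and 0.984). CCL11 was most like PDE4B, a cAMP phosphodiesterase (0.993), HERPUD1 (0.989) and IRS2, an insulin receptor substrate (0.987). By Spearman's rho, 0 to 2 of the first 5 genes of a member were the same, so these names depend on the measure.

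Among the 19 other CC ligands measured, few were detected. Without LPS, 0 of the 6 tested were called between KD and scramble by edgeR or DESeq2, against 7.77% of all genes by edgeR. Of these 6, 0 had an unadjusted p under 0.05, against 6148 of 16217 genes. With LPS 3 of 11 tested were called higher in KD and 1 lower, where 8.48% of all genes were called and 4.58% were called higher. Some of the 11 passed the low-count filter only through the group where they were high, so this count is a description only. CCL3 and CCL4, the macrophage inflammatory proteins, are named here after their values were seen. CCL4 was at 46, 51 and 44 counts in KD with LPS and at 0 counts in the 9 libraries of the other groups. That is at least 16.0-fold higher than in scramble with LPS, against a floor of 3 counts per library. CCL4 thus passed the low-count filter through KD with LPS alone, and no p-value is given for it. CCL3 was at 58, 71 and 49 counts in KD with LPS and at 0 to 4 counts elsewhere. Both genes have near-identical copies (CCL3L1, CCL3L3 and CCL4L2, also counted mostly in KD with LPS), so the split between copies is uncertain.

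CCL19, a CCR7 ligand also named after its values were seen, had another pattern. It was at 27, 78 and 93 counts in scramble with LPS and at 0 to 14 counts in every other library. LPS raised it in scramble (log2 4.11 ± 0.89, adjusted p = 0.00958 by edgeR), and it was lower in KD with LPS than in scramble with LPS (log2 -3.78 ± 0.85, adjusted p = 0.00444 by edgeR). CCL14, CCL21, CCL23 and CCL24 were at 0 counts in all libraries, and CCL4L1 was not analysed here.

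The receptors of these ligands were barely detected, whereas transcripts of some genes that remove or trim chemokines differed with KD. CCR8 and CCR9 were at 0 counts in all 12 libraries, CCR2 and CCR3 had counts in 1 library each, and no CCR gene exceeded 33 counts in a library. ACKR4 is a scavenging receptor for chemokines such as CCL19, CCL21 and CCL25. It lay at 7.18, 12.1 and 12.1 CPM in scramble and at 85.5, 96.2 and 109.7 CPM in KD. ACKR4 rose 9.33-fold without LPS (log2 3.22 ± 0.18, adjusted p = 1.78e-07) and 15.6-fold with LPS (3.96 ± 0.18, adjusted p = 3.02e-09), both by edgeR.

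DPP4, a membrane peptidase that trims the amino end of CCL5, CCL11 and other chemokines, lay at 104.6, 136.5 and 97.9 CPM in scramble and at 479.6, 475.0 and 469.4 CPM in KD. It rose 4.21-fold without LPS (log2 2.07 ± 0.11, adjusted p = 1.53e-07) and 5.27-fold with LPS (2.40 ± 0.11, adjusted p = 3.50e-09), both by edgeR. ACKR2, a scavenging receptor for many inflammatory CC chemokines, averaged 0.344 CPM in scramble and 0.178 CPM in KD and did not pass the test (log2 -0.94 ± 1.16, adjusted p = 0.607 by edgeR), nor did it with LPS (-1.14 ± 1.00, adjusted p = 0.457). CCRL2 had at most 1 count in a library. Without LPS, ACKR1 was also called higher and PITPNM3 lower (log2 -1.73 ± 0.31, adjusted p = 0.00142 by edgeR). In all, 3 of 9 tested genes of this list were called higher in KD and 1 lower without LPS, and 3 of 10 higher with LPS. Over all genes, 7.77% were called and 4.28% called higher without LPS, and 8.48% and 4.58% with LPS. Between LPS and no LPS, 0 of the 10 tested were called in either kind of cell by edgeR or DESeq2. An unadjusted p under 0.05 was found for 2 in scramble, against 4324 of 15920 genes, and 0 in KD, against 3662 of 16169.

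NF-kB subunits and IkB proteins are part of the signaling route from toll-like receptors to chemokine genes. Of 11 genes in a list of them that also holds TNFAIP3, LPS raised 8 in scramble and 8 in KD. Over all genes, 1.4% and 1.3% were called higher. NFKB2 rose 4.25-fold in scramble and 3.99-fold in KD, REL 3.96-fold and 4.47-fold, NFKBIZ 3.50-fold and 4.55-fold, and TNFAIP3, a feedback inhibitor, 3.65-fold and 4.69-fold (largest adjusted p = 8.07e-07, for REL in scramble, by edgeR). Without LPS, 0 of the 11 were called between KD and scramble by edgeR or DESeq2. By the adjusted p alone 4 passed with smaller rises, where 27.2% of all genes passed. An unadjusted p under 0.05 was found for 5 of the 11, against 6148 of 16217 genes tested. With LPS, NFKBIZ was the called gene, higher in KD (log2 1.13 ± 0.08, adjusted p = 1.08e-07 by edgeR). In that comparison 8.48% of all genes were called. The interaction called 0 of the 11 by edgeR, with 4 at an unadjusted p under 0.05, and 1 by DESeq2. Over all genes edgeR called 1.28%, and 1907 of 17173 had an unadjusted p under 0.05.

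Among 12 genes for mRNA-binding and decay factors, ZC3H12A, which encodes Regnase-1, an endonuclease that degrades inflammatory mRNAs, rose with KD and with LPS. It was 2.59-fold higher in KD without LPS (adjusted p = 1.33e-06) and 2.23-fold with LPS (adjusted p = 3.55e-06), and LPS raised it 7.60-fold in scramble and 6.52-fold in KD, all by edgeR. Its relative ZC3H12C was 2.40-fold higher in KD with LPS, and the interaction called it (log2 0.71 ± 0.14, adjusted p = 0.0196 by edgeR). The interaction also called ZFP36L1, with a smaller KD effect under LPS (log2 -0.53 ± 0.12, adjusted p = 0.0378 by edgeR). In all, 1 of 12 was called in KD without LPS and 2 with LPS, all higher, against 7.77% and 8.48% of all genes. By the adjusted p alone, 4 were higher and 3 lower in KD without LPS, where 27.2% of all genes passed in either direction. With LPS 2 were higher and 2 lower, where 26.9% of all genes passed.

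Among the genes of the STAT and type 2 cytokine receptor list, IRF1, an interferon-responsive transcription factor, was called higher in KD with LPS (2.04-fold) and rose with LPS in scramble (3.32-fold) and in KD (3.93-fold). IL13RA2, a decoy receptor for interleukin 13, fell with LPS in scramble (log2 -1.32 ± 0.19, adjusted p = 0.000738 by edgeR), and IRF7 rose with LPS in KD (2.20-fold, adjusted p = 0.0238 by edgeR).

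**Figure D4:**
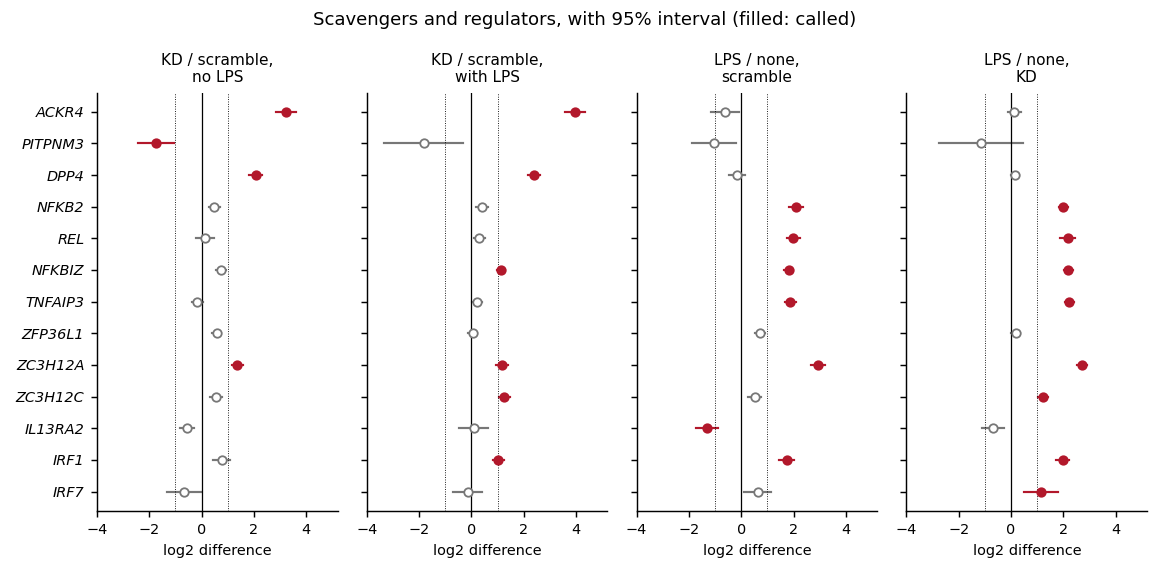
Log2 difference with 95% interval (edgeR) of the named scavenging receptors, peptidase, NF-kB, mRNA decay and other named genes in the 4 group comparisons. Filled red points are called and dotted lines mark a 2-fold difference. ACKR4 and DPP4 are called in the KD comparisons alone, while NFKB2, REL and TNFAIP3 are called in the LPS comparisons alone.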

How the data were processed

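The annotation release behind the index is not given in the sources used here. Per the labels and the study's methods, libraries from a stranded mRNA kit were demultiplexed with bcl2fastq 2.19 and pseudoaligned to a human GRCh38 transcriptome with kallisto 0.44.0, and the authors tested them with DESeq2 1.32.0. The authors deposited estimated counts summed per gene name, not normalized for depth or length, and the deposited values are whole numbers. A row without a gene name held 0.235% to 0.306% of a library's counts and was left out.

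In R 4.3.3, genes totalling 10 or more counts in the libraries compared were scaled by TMM and tested with edgeR 4.0.16 (quasi-likelihood F test, Benjamini-Hochberg adjustment over all genes tested). A gene was called when its adjusted p was under 0.05 and its difference 2-fold or more, the study's thresholds; for the interaction the adjusted p alone was used. Each group comparison used its 6 libraries and the interaction all 12. SEs were obtained from each log2 fold change and its F statistic (absolute change over the root of F). CPM were scaled over all 12 libraries. With 3 libraries against 3, an exact two-sided permutation test of a single gene cannot go below p = 0.1, so tests rest on the model across genes. Intervals and floors cover counting error and the spread between these libraries only.

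Besides all members, up to 4 called genes per list and comparison and up to 5 most like genes per member, each with a mean of at least 50 counts, were named by rule; some results under this rule are not reported here. The members, lists, tests and alternatives were chosen with earlier results of these data known. The fits were tested on simulated data; the limit for the interaction was set on large effects after a first, stricter limit was missed. Alternatives were library size and size-factor scaling, other low-count filters, DESeq2 1.42.0, a replicate block, a fit on all 12 libraries and each library left out. Python 3.11.15 was used for sequences and figures. Promoter windows were matched for 5 of 8 members.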

Additional observations from a re-analysis of the deposited data

Results flagged for a closer look

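The KD effect on CCL2 was tested for a difference between cells without and with LPS. It was larger with LPS by 1.15 ± 0.23 (SE, log2), with an adjusted p of 0.0163 in edgeR's interaction test on all 12 libraries. Without scramble replicate 2 the difference was 1.00 and the adjusted p 0.0567, so the call was lost. CCL2 averaged 146.5 CPM in scramble and 131.7 CPM in KD without LPS, and 500.9 and 999.6 CPM with LPS (n = 3 libraries each). All 3 KD libraries were above all 3 scramble libraries with LPS, whereas without LPS the groups overlapped.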

How the results depend on the processing

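For the 40 member differences, 516 of 553 alternative values kept their direction and their side of the threshold, 7 lost the call, 14 gained it and 16 turned sign. DESeq2 gave no adjusted p for 5 values, which were left out. The number of members called stayed within 1.5 times the reported number in the 4 group comparisons. For the interaction it was 3 of 8 with DESeq2 and 0 to 2 with a library left out, against 1 reported: CCL2 was lost without scramble replicate 2 (adjusted p = 0.0567) and CCL5 was gained without scramble with LPS replicate 2 (adjusted p just under the threshold). Over all genes the interaction called 219, but 431 without the filter on low counts, 475 with DESeq2 and 92 without scramble replicate 2; the cause was not tested. All values that turned sign had missed the threshold. With a library left out, CCL26 ranged from -0.75 to 0.43 (KD without LPS), -0.67 to 0.14 (KD with LPS), -0.87 to 0.12 (LPS in scramble), -0.99 to 0.0096 (LPS in KD) and -0.66 to 0.50 (interaction), CCL13 from -0.24 to 0.88 (LPS in scramble) and -0.079 to 1.03 (interaction), and CCL2 from -0.38 to 0.0036 (KD without LPS), all log2. CCL20 in KD without LPS reached 2-fold (log2 1.00) without scramble replicate 3. Scaling by library size alone moved the median log2 difference over all genes from 0.02 to 0.13 for KD without LPS and from 0.03 to 0.11 with LPS, and all called members kept their direction and call.

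Correlations of deviations between samples of the same replicate number ran from -0.126 to 0.273 over 11811 genes, and in no comparison were all 3 above 0.1, so the numbers were not taken as pairs. For LPS in scramble they were 0.273, 0.118 and 0.09, each above the best with another number (-0.146, 0.0809 and 0.039), which is a hint from the data and not from the design. With the replicate number as a block, 37 of 40 member values kept their side: CCL5 in KD without LPS lost its call (log2 1.77, adjusted p = 0.0713), CCL2 in KD with LPS gained it (log2 1.01), and CCL13 with LPS in scramble turned to -0.18. The numbers of members called were then 2, 5, 4, 6 and 1 in the order of the comparisons above. Members with few counts (CCL13 and CCL26 throughout, CCL8 and CCL11 in scramble) are limited by depth. By Spearman's rho, 0 to 2 of the 5 genes most like each member were shared, and by the median transcript length 2 of 8 members kept their rank in KD with LPS.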
